A study of Mus musculus with 12 samples.

Results

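The genes described here encode the proteins of the cytosolic ribosome. They were chosen by symbol: a probe set had to carry 1 gene symbol in the platform annotation, and that symbol had to be Rpl or Rps followed by a digit, or Rplp0, Rplp1, Rplp2 or Rpsa, without the S6 kinases (Rps6k) and pseudogenes. This gave 50 of the 18194 genes measured, 26 named for the large subunit (Rpl) and 24 for the small subunit (Rps). Of these, 49 passed the filter on low signal and were tested, and 1 (Rps16) did not. A further 31 ribosomal protein symbols, among them Rpl5, Rplp1 and Rps27a, appear only in probe sets that list several symbols and are not members.

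The ribosome translates messenger RNA into protein. Its small subunit reads the message, its large subunit joins the amino acids, and a ribosome needs its core proteins in equal amounts; the messages of these genes are among the most abundant in a cell. Most of them begin with a C followed by a run of pyrimidines, the 5′ terminal oligopyrimidine (TOP) tract, through which the kinase mTOR and the protein Larp1 set how much of the message is translated. Such control acts on translation, which arrays of message levels do not measure.

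RNA came from dendritic cells of mouse lymph nodes (strain C57BL/6), which carry antigen to T cells. The genotype was labelled wild-type (WT) or p38a-knockout (KO); p38α is a stress-activated protein kinase encoded by Mapk14. Pam3CSK4, a lipopeptide that activates the receptor TLR2, was given at 1 mg/ml as labelled, and cells were taken at 0, 2 and 4 h. That dose is high for this ligand, and nothing in the sources allows a check of its unit. The 6 groups had 2 arrays each, A and B, so 12 in all, and no array at 2 or 4 h without the ligand is analysed here. Ligand and time in culture therefore cannot be told apart. The labels do not say how the knockout was made or in which cells, give no age, and do not say that A and B came from separate animals or cultures, so the p-values below measure only the spread between these arrays.

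Mapk14 was not lower on the arrays labelled KO. Its brightest probe set read 8.41 and 8.02 in WT at 0 h and 8.37 and 8.37 in KO at 0 h on the log2 scale, and over the 3 times the arrays labelled KO were higher by 0.31 ± 0.076 (SE; limma, adjusted p = 0.0138). Where the deleted part lies relative to this probe set is not given, so whether it tests the label is unknown, and every direction between genotypes below refers to the labels. Of 16 dendritic cell markers 15 were measured and all 15 lay above the filter, with summed signals of 30590 to 33980 on the arrays. Markers of macrophages and monocytes (10 of 11 measured, all above the filter) summed to 3161 to 3206 in WT and 5225 to 5374 in KO at 0 h, and to 2072 to 2265 and 3595 to 3730 at 4 h. B cell markers (8 of 9 measured above the filter) summed to 708 to 715 in WT at 0 h and to 486 on both arrays at 4 h, and to 857 to 919 in KO at 0 h. T cell markers (9 of 10 measured above the filter) summed to 1100 to 1235 in WT and 1244 to 1324 in KO at 0 h. At 4 h the T cell sums were 964 to 1009 and 1101 to 1187. Neutrophil markers (6 of 8 measured above the filter) summed to 244 to 279 in WT and 209 to 230 in KO at 0 h, and to 475 to 497 and 460 to 490 at 4 h. NK cell markers (7 of 7) went from 1733 to 1784 in WT at 0 h to 1356 to 1395 at 4 h, stromal and endothelial markers (9 of 9) stood at 922 to 986 in WT and 1322 to 1434 in KO at 0 h, and 0 of 3 measured erythroid markers passed the filter. The 2% trimmed mean of the deposited signals ran from 66.6 (KO 2 h B) to 119 (KO 0 h A), a 1.79-fold span, and an 18S ribosomal RNA control set from 9.19 (WT 0 h A) to 11.30 (KO 2 h B) on the log2 scale. Arrays of one group correlated with r of 0.987 to 0.990 across genes, which are not independent replicates.

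The TOP tract is read at the start of the message. The annotated start regions of the members that passed a test below, and of 4 that did not, were therefore searched for runs of pyrimidines. A run found there does not show that the message in these cells carries a TOP tract. RefSeq's promoter table (GRCm38.p6) held 44 of the 50 members, with 52 start sites. Each line gives 15 bases before and 15 from the start site on, 5′ to 3′ on the strand of the gene. Capitals mark a stretch of at least 5 pyrimidines counted from the first suitable C within 5 bases of the start. The base before that C was not checked, so a stretch can continue a longer run, as in Rps9 and Rplp2, where a t precedes it.
Rpl27a, chr7:109519180-109519209, plus strand: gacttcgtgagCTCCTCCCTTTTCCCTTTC
Rpl37, chr15:5116598-5116627, plus strand: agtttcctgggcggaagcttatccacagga
Rpl39, chrX:37085208-37085237, minus strand: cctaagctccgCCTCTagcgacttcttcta
Rps9, chr7:3704026-3704055, plus strand: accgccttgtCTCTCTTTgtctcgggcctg
Rpl22, chr4:152324421-152324450, plus strand: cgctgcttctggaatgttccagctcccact
Rpl7l1, chr17:46782642-46782671, minus strand: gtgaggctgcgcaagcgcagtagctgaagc
Rpl13a, chr7:45128731-45128760, minus strand: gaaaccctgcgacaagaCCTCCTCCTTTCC
Rplp2, chr7:141447636-141447665, plus strand: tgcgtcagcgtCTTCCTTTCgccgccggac
Rps10, chr17:27635230-27635259, minus strand: gcgccgcgcacgCCCCTTCCTTTCCagcct
Rps6, chr4:86857353-86857382, minus strand: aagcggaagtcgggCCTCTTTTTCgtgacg

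Such a tract was found at 21 of the 52 member starts (40.4%) and at 18.3% of all 32841 starts in the table. For the translation factors and other TOP messages listed below it was 8 of 20 starts (40%), and for ribosome assembly genes 16.3%. These counts include stretches that continue a longer run of pyrimidines, so not every run counted opens with C. In the 250 bases before the start, CCGGAA on either strand stood in 42.3% of the member promoters and 12% of all, and the palindrome CACGTG in 9.62% and 6.02%. In the TOP message and assembly lists CCGGAA stood in 30% and 30.2%, and CACGTG in 15% and 4.65%. Among the lines above, Rpl27a has a tract that runs to the end of the window and Rpl39 one of 5 bases, while Rpl37, Rpl22 and Rpl7l1 have none that opens within 5 bases of the start. Runs of pyrimidines farther from the start, as in the windows of Rpl22 and Rpl39, were not counted. An unmarked line says only that no such run opens that close to the annotated start, which can lie some bases from the one used in these cells.

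Signals were quantile-normalized, given as log2(signal + 16), and each gene was read on its brightest probe set. The values of the members fell into 2 ranges. In 35 members the mean over the 12 arrays lay between 11.82 and 13.45, and in the other 15 between 4.10 and 10.28; a line at 11, drawn after the values were seen, separates them. The 5 highest probe sets were those of Rps29 (13.45), Rplp2 (13.11), Rpl13a (13.05), Rps28 (13.03) and Rpl38 (13.03), and the 5 lowest those of Rps16 (4.10), Rpl3l (5.13), Rpl39l (5.14), Rpl14 (5.86) and Rpl39 (5.94). A level of one probe set is no measure of message relative to another probe set, so this order describes the sets and not the genes. Of the 15 members below 11, 13 were read on a plain _at set and 9 are also listed in sets with several symbols, whereas 30 of the 35 above 11 were read on sets with an _x_at, _s_at or _a_at suffix, which can also detect transcripts of related sequence. The median member stood at the 99.5th to 99.6th percentile of all probe sets on every array.

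**Figure D1:**
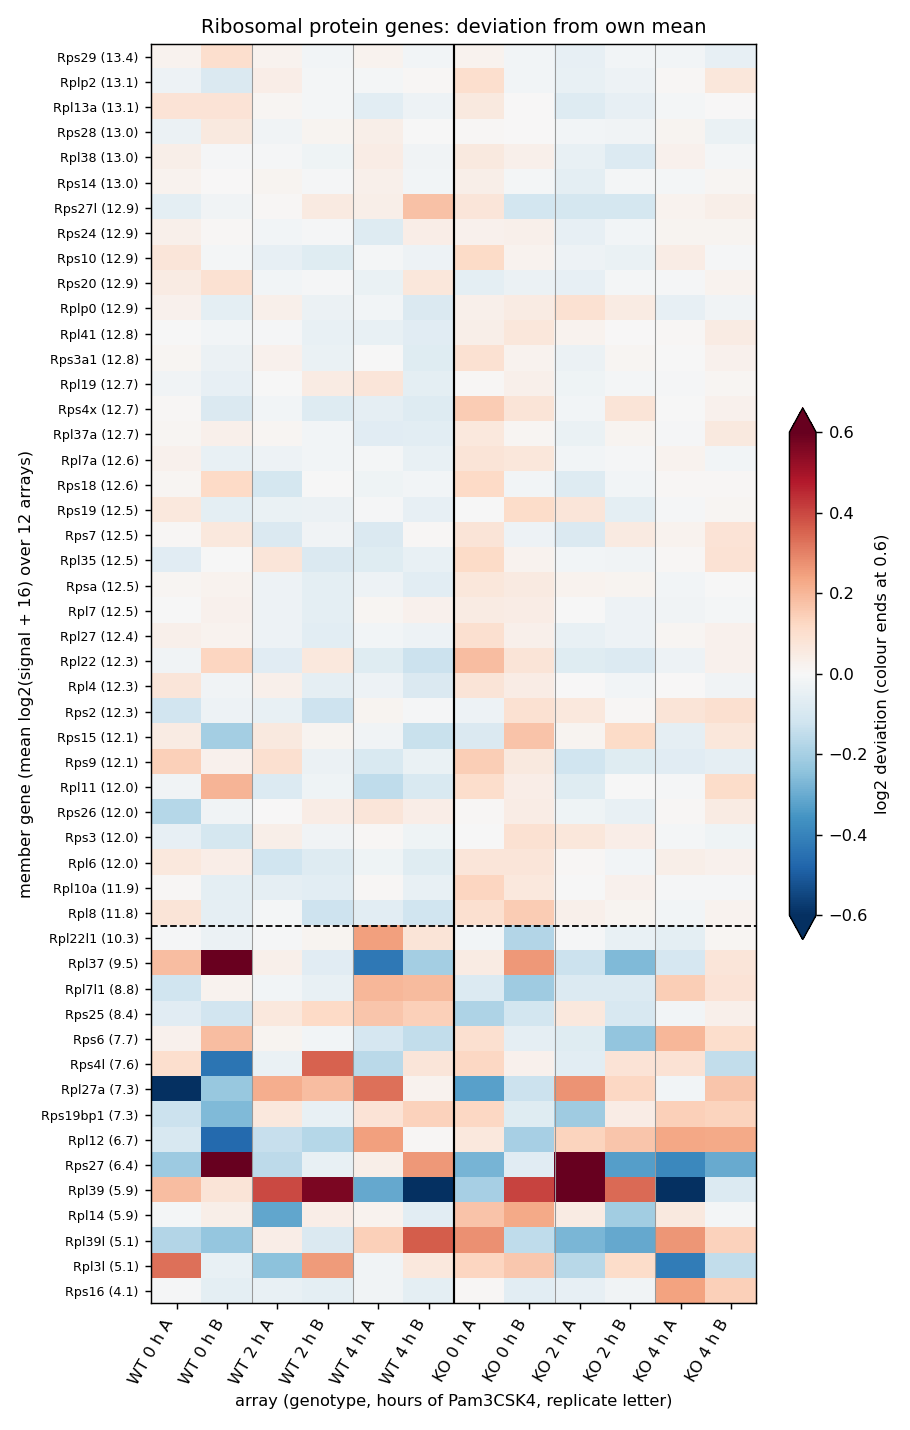
Deviation of each of the 50 members from its own mean over the 12 arrays (colour, log2 units, ending at 0.6), with members ordered by mean level from top to bottom and arrays ordered by genotype label, time and replicate letter. The 35 members above the dashed line (mean above 11) are pale throughout, with ranges of 0.10 to 0.37 over the 12 arrays, and the strong colours lie below it.

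After quantile normalization the members above 11 varied little over the 12 arrays. Rplp2, an acidic protein of the stalk that recruits translation factors, read 13.08 and 13.02 in WT at 0 h, then 13.15 and 13.10 at 2 h and 13.10 and 13.11 at 4 h, against 13.21 and 13.09, 13.06 and 13.08, and 13.11 and 13.17 in KO. Its 12 arrays span 0.19. In WT both arrays of 2 h and of 4 h lie above those of 0 h. In KO both arrays of 2 h lie below those of 0 h, and those of 4 h overlap with them. Rpsa, the small-subunit protein also known as a laminin receptor, read 12.51 and 12.52, 12.47 and 12.44, and 12.47 and 12.43 in WT, and 12.57 and 12.55, 12.52 and 12.52, and 12.48 and 12.50 in KO, a range of 0.13. The median SD within groups was 0.040 for these 35 members and 0.145 for all 12792 genes tested. Their range over the 12 arrays had a median of 0.17, against 0.72 for all genes. Their changes from 0 h lay between -0.22 and 0.15 in the 4 time comparisons, and in each of these all 35 had a 95% interval within 0.5 of zero (1.41-fold). Within 0.25 of zero (1.19-fold) lay the intervals of 31 and 30 members in WT at 2 and 4 h and of 32 and 32 in KO. These counts hold for this normalization only: on the deposited scale 0 intervals lay within 0.25 in each of the 4 comparisons, and 22 and 31 in WT and 7 and 31 in KO lay within 0.5. After trimmed-mean scaling 2 and 10 in WT and 2 and 8 in KO lay within 0.25, and 28 and 35, and 29 and 35, within 0.5. The brightest sets lie near the top of the scale, where array maxima of the deposited signals ran from 10879 to 12902; whether the scale is compressed there was not tested. The 14 tested members below 11 had a median SD of 0.15 and a median range of 0.69.

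In WT cells given the ligand, 1 member rose and 1 fell by 2 h, and 1 rose and 2 fell by 4 h. These were Rpl27a, Rpl37 and Rpl39, all of the large subunit, and all 3 were read on sets below 11. At 2 h this is 2 of 49 members (4.08%), when 19.9% of the 12792 genes passed the same test (limma, adjusted p below 0.05; 8.43% higher and 11.5% lower). At 4 h it is 3 of 49 (6.12%) beside 18.2% of all genes (8.31% higher and 9.90% lower), so at both times a smaller share of members than of all genes was called. At an unadjusted p below 0.05 the counts were 3 members at 2 h, beside 30.7% of all genes, and 16 of 49 at 4 h, beside 28.9%, so at 4 h the share of members was not below that of all genes by this looser measure. In RNA of whole cultures, fewer cells of a type and less RNA per cell cannot be told apart. Of 10 tested macrophage and monocyte markers, 4 were lower in WT at 2 h, and 6 were lower and 1 higher at 4 h, with the summed levels given above, and the part of these and the other marker lists in these results was not tested.

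Rpl27a read 6.73 and 7.11 in WT before the ligand, 7.55 and 7.52 after 2 h, and 7.67 and 7.36 after 4 h. Both later groups lie above both arrays of 0 h. The changes were 0.62 ± 0.14 at 2 h (limma, adjusted p = 0.00594) and 0.59 ± 0.14 at 4 h (adjusted p = 0.00821). In KO it read 7.01 and 7.21 at 0 h, then 7.61 and 7.46 at 2 h and 7.32 and 7.50 at 4 h, which gave 0.42 ± 0.14 (limma, adjusted p = 0.0514) and 0.30 ± 0.14 (0.177). Both WT calls rested on WT 0 h A, the lowest of the 12 arrays: leaving it out gave an adjusted p of 0.0881 at 2 h. The call at 4 h was lost without it or without WT 4 h A (largest adjusted p 0.121). On the scale as deposited the WT changes were 0.23 (limma, adjusted p = 0.524) and 0.42 (0.412).

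Rpl37 moved the other way. It read 9.71 and 10.11 in WT at 0 h, then 9.55 and 9.45 at 2 h and 9.09 and 9.32 at 4 h, and the 3 groups do not overlap. It fell by 0.41 ± 0.12 at 2 h (limma, adjusted p = 0.0274) and by 0.71 ± 0.12 at 4 h (adjusted p = 0.000611), 1.63-fold. The change at 4 h passed the test under each of the 12 other settings that measured it and with each array left out, with estimates from -0.91 to -0.50; that at 2 h was lost when WT 0 h B, WT 2 h A or WT 2 h B was left out (largest adjusted p 0.319). In KO it read 9.57 and 9.78 at 0 h, then 9.39 and 9.26 at 2 h and 9.42 and 9.59 at 4 h, which gave -0.35 ± 0.12 (limma, adjusted p = 0.0562) and -0.17 ± 0.12 (0.409). Its set is an _x_at set, and Rpl37 also stands in sets that list several symbols.

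Rpl39, a short protein at the rim of the tunnel through which the new chain leaves the ribosome, read 6.12 and 6.01 in WT at 0 h, then 6.33 and 6.50 at 2 h and 5.63 and 4.29 at 4 h. Both arrays of 4 h lie below those of 0 h, but they differ from each other by more than the groups do, and 4.29 is under the filter level of 4.73. The change at 4 h was -1.11 ± 0.35 (limma, adjusted p = 0.0369). The call was lost when WT 4 h B, WT 0 h A or WT 0 h B was left out (largest adjusted p 0.455), and its estimate over all settings ran from -2.06 to -0.44. In KO at 4 h it read 5.19 and 5.86, -0.51 ± 0.35 from 0 h (limma, adjusted p = 0.367).

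**Figure D2:**
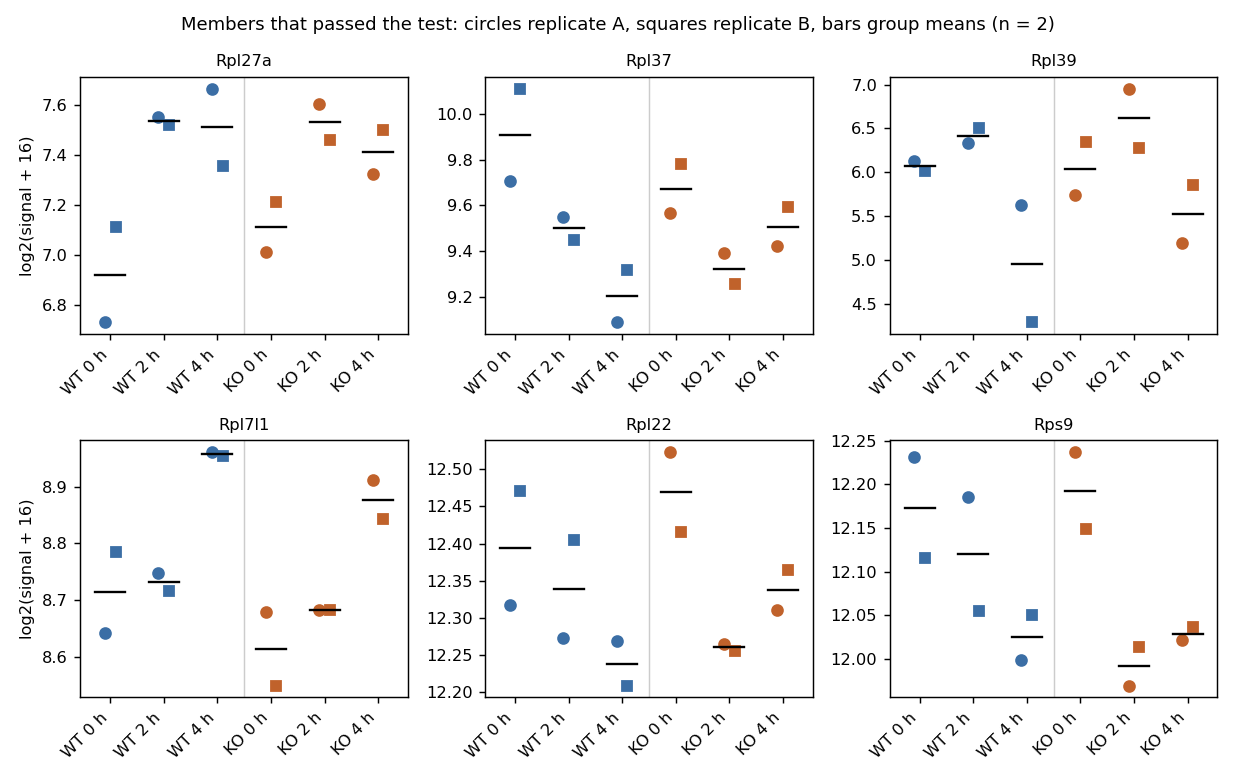
Values of the 6 members that passed the test in at least 1 comparison, as log2(signal + 16) on each of the 12 arrays (circles, replicate A; squares, replicate B; bars, means of 2 arrays; blue WT, orange KO labels). The vertical scales differ: Rpl39 spans 2.67 over the 12 arrays, whereas Rps9 spans 0.27 and Rpl22 0.31.

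On the arrays labelled KO, 2 members fell by 2 h and 1 rose by 4 h, beside 19.6% (7.85% higher and 11.7% lower) and 18.1% (7.24% higher and 10.9% lower) of all genes. Of the 10 macrophage and monocyte markers 7 were lower in KO at each time and 1 was higher at 4 h; their part was not tested. At an unadjusted p below 0.05 the counts were 5 and 2 members, beside 31.3% and 29.1% of all genes. Rps9, a small-subunit protein, read 12.24 and 12.15 at 0 h, then 11.97 and 12.01 at 2 h and 12.02 and 12.04 at 4 h. Both later groups lie below 0 h, with changes of -0.20 ± 0.063 at 2 h (limma, adjusted p = 0.0358) and, short of the threshold, -0.16 ± 0.063 at 4 h (0.0914). Rpl22, an RNA-binding protein of the large subunit known for its role in T cell development, read 12.52 and 12.42 at 0 h, then 12.27 and 12.26 at 2 h and 12.31 and 12.37 at 4 h. It fell by 0.21 ± 0.067 at 2 h (limma, adjusted p = 0.0377). In WT the same sets gave -0.053 ± 0.063 for Rps9 and -0.055 ± 0.067 for Rpl22 at 2 h. Both calls were lost without KO 0 h A, KO 2 h A or KO 2 h B, with a largest adjusted p of 0.219 for Rps9 and 0.244 for Rpl22, and after trimmed-mean scaling, where the estimates were -0.025 and -0.0029.

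Rpl7l1, a paralogue of Rpl7, read 8.68 and 8.55 in KO at 0 h, then 8.68 and 8.68 at 2 h and 8.91 and 8.84 at 4 h. It rose by 0.26 ± 0.083 at 4 h (limma, adjusted p = 0.0387). In WT it read 8.64 and 8.78 at 0 h, then 8.75 and 8.72 at 2 h and 8.96 and 8.95 at 4 h, a change of 0.24 ± 0.083 that missed the threshold (0.0545), and its response at 4 h differed between the labels by 0.019 ± 0.12 (limma, adjusted p = 0.996). Leaving out 1 array lost the KO call in 7 of 12 cases: WT 2 h A or B, WT 4 h A or B, KO 0 h B, and KO 4 h A or B (largest adjusted p 0.24). With the signals as deposited the change was 0.095 (0.879). Rpl7 itself, read at 12.47, ranged over 0.11.

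The other members are described by their place in the ribosome. The P stalk was represented by Rplp0, its scaffold, by Rplp2 and by Rpl12 at its base, and 0 of these 3 were called in any comparison. Rplp0 gave 0.013 and -0.034 in WT and 0.032 and -0.073 in KO (each ± 0.054) at 2 and 4 h. Rpl12, on a dim set (6.66), gave 0.41 ± 0.15 in WT at 4 h (limma, adjusted p = 0.0717). Rpl11, which joins 5S ribosomal RNA and can bind Mdm2 outside the ribosome, read 12.002 and 12.223 in WT at 0 h and 11.87 and 11.93 at 4 h, with no overlap, a change of -0.22 ± 0.072 that came just short of the threshold (limma, adjusted p = 0.0513). In KO at 4 h it read 12.01 and 12.13, a difference of -0.023 ± 0.072 from 0 h. A list of genes mutated in Diamond-Blackfan anaemia, a failure of red cell formation, held 8 measured members and is not complete. Of these, and of the 2 proteins that join the small subunit late, Rps10 and Rps26, 0 were called in any comparison. Of all genes 18.1% to 19.9% were called in the time comparisons and 2.30% to 10.5% between the labels. For the difference of the responses it was 0.0313% and 0.0469%. With so few members in each group, a count of 0 says little about it.

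Rps6, the substrate of the S6 kinases, was read on a set of mean 7.70 and is also listed in sets with several symbols. It read 7.73 and 7.89 in WT at 0 h, then 7.72 and 7.68 at 2 h and 7.60 and 7.55 at 4 h, and 7.79 and 7.65, 7.63 and 7.46, and 7.90 and 7.80 in KO. At 4 h both WT arrays lie below and both KO arrays above those of 0 h. Rpl13a, which leaves the ribosome in interferon-treated monocytic cells to silence inflammatory messages, read 13.14 and 13.14 in WT at 0 h and 12.99 and 13.02 at 4 h, a difference of -0.13 ± 0.049 (limma, adjusted p = 0.0841). In KO the differences were -0.093 ± 0.049 at 2 h and -0.037 ± 0.049 at 4 h.

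Of the paralogues 6 were tested: Rpl22l1, Rpl39l, Rpl3l, Rpl7l1, Rps27l and Rps4l. Besides Rpl7l1, 0 were called in any comparison. Of all genes 18.1% to 19.9% were called in the time comparisons and 0.0313% to 10.5% in the others. So few genes allow no statement about paralogues as a group. Rps27l, known as a target of p53, is read at 12.94 and gave 0.15 ± 0.064 in WT at 4 h (limma, adjusted p = 0.143), with 12.88 and 12.92 at 0 h and 12.97 and 13.11 at 4 h. Rps27, after which it is named, was read on a set of mean 6.39 whose WT arrays at 0 h stood at 6.17 and 7.18. Rpl22l1 gave 0.18 ± 0.075 in WT at 4 h (adjusted p = 0.115) while Rpl22 gave -0.16 ± 0.067 (0.13), both short of the limma threshold. Rpl3l and Rpl39l, known from striated muscle and testis, were close to the filter level, at 5.13 and 5.14. Rps4l, on a set of mean 7.58, stood at 7.69 and 7.15 in WT at 0 h, a wider gap than its changes of -0.10 to 0.32 over the 4 time comparisons. Rps19bp1, a member by its symbol alone, encodes a protein that binds Rps19 and is no part of the ribosome; it gave 0.31 ± 0.12 in WT at 4 h (limma, adjusted p = 0.0974).

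Between the genotype labels, 0 of 49 members were called at 0 h, 2 h or 4 h by limma, and 0 over the 3 times together, while 3.30%, 2.30%, 2.39% and 10.5% of all genes were (over the 3 times 6.21% higher and 4.28% lower in KO). At an unadjusted p below 0.05 the counts were 4, 1, 4 and 6 members, beside 14.5%, 14.9%, 13.8% and 23.5% of all genes. Closest to the threshold over the 3 times were Rps4x, the X-linked S4 protein, at 0.10 ± 0.033 (limma, adjusted p = 0.0642), Rps2 at 0.10 ± 0.035 (0.0787) and Rpl8 at 0.10 ± 0.036 (0.099), each higher on the arrays labelled KO. On the deposited scale the same differences were -0.032 ± 0.093, -0.069 ± 0.10 and -0.096 ± 0.11, so their direction turned, and after trimmed-mean scaling they were 0.18 ± 0.057, 0.14 ± 0.059 and 0.11 ± 0.053, none of them called by limma. The median of all 49 members was 0.030 here, -0.11 on the deposited scale and 0.092 after trimmed-mean scaling. Rps4x read 12.70 and 12.61, 12.68 and 12.62, and 12.65 and 12.62 in WT at 0, 2 and 4 h, and 12.85 and 12.78, 12.68 and 12.78, and 12.70 and 12.72 in KO. The groups do not overlap at 0 h and 4 h and overlap at 2 h. At single times the members with the smallest p were Rps4x (0.15 ± 0.057), Rpl10a (0.12 ± 0.055) and Rps20 (-0.12 ± 0.053) at 0 h, with limma adjusted p = 0.199, 0.316 and 0.317. At 2 h they were Rps27l (-0.14 ± 0.064), Rpl12 (0.30 ± 0.15) and Rps9 (-0.13 ± 0.063), with adjusted p = 0.33, 0.365 and 0.366 by limma. At 4 h they were Rps6 (0.28 ± 0.10), Rpl37 (0.30 ± 0.12) and Rpl22l1 (-0.18 ± 0.075), with adjusted p = 0.24, 0.272 and 0.279 by limma. All 35 members above 11 had a 95% interval within 0.25 of zero in the comparison over the 3 times, as did 4 on the deposited scale and 28 after trimmed-mean scaling. In the same comparison 8 of 10 macrophage and monocyte markers were higher in KO and 0 lower, and their part in the members' values was not tested.

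The response to the ligand was compared between the labels as the difference of the changes from 0 h. By limma 0 of 49 members were called at 2 h and at 4 h, beside 0.0313% and 0.0469% of all genes, and 0 and 2 members had an unadjusted p below 0.05, beside 5.89% and 6.06% of all genes. The smallest adjusted p at 4 h was that of Rpl37, whose change from 0 h was less negative in KO by 0.54 ± 0.17 (adjusted p = 0.623), so that its calls in WT and their absence in KO are not shown to differ. It was followed by Rps6 at 0.36 ± 0.15 (limma, adjusted p = 0.764) and Rpl11 at 0.19 ± 0.10 (0.881). At 2 h the smallest was that of Rps26, with a difference of -0.18 ± 0.085 (limma, adjusted p = 0.836), then Rplp2 at -0.15 ± 0.078 (0.865) and Rpl39l at -0.53 ± 0.29 (0.871). After quantile normalization the 95% interval of the difference in all 35 members above 11 lay within 0.5 of zero at both times. On the deposited scale this held for 8 at 2 h and 18 at 4 h, and after trimmed-mean scaling for 35 at both. Within 0.25 of zero lay 25 and 26 after quantile normalization, and 0 at both times under either other scaling.

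Where a gene had several probe sets, these often disagreed on the sign of a small change. In 21 members with several tested sets, 13 held estimates of both signs in WT at 2 h, 12 in WT at 4 h, 13 in KO at 2 h and 10 in KO at 4 h. Estimates near zero can differ in sign by noise alone, and how often they would was not worked out. The median span between a gene's sets, dim ones included, was 0.13 to 0.22. The median SD was 0.040 for members above 11 and 0.15 for tested members below 11. Rps9 is an example of sets that differ in sign. Its brightest set, used above, fell in KO at 2 h. Its second set, an _x_at set, read 11.64 and 11.94 in WT at 0 h and 11.23 and 11.54 at 4 h, -0.40 ± 0.12 (limma over all probe sets, adjusted p = 0.041), but gave -0.11 ± 0.12 in KO at 2 h (0.605). The third set, a dim one, gave 0.15 ± 0.17 there (0.627).

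The second set of Rpl22, an _at set of mean 11.20, gave larger estimates than the one used for the gene, -0.41, -0.43, -0.61 and -0.39 in WT at 2 and 4 h and KO at 2 and 4 h, all ± 0.20. It read 11.68 and 11.28 in WT at 0 h, then 11.28 and 10.86 at 2 h and 11.20 and 10.89 at 4 h. On the KO arrays it read 11.73 and 11.35, 11.17 and 10.69, and 11.37 and 10.94. Replicate A lies above B in each of the 6 groups, by about as much as the times differ, and no estimate passed the test in the fit of all probe sets (smallest adjusted p = 0.055, limma). In the fit of genes without _x_at and _s_at sets, where this set stands for Rpl22, its change of -0.61 in KO at 2 h did pass (limma, adjusted p = 0.0307). The set used for Rpl22 had no such order, with A below B in 3 groups. The third set gave estimates between -0.065 and 0.19. For Rps10 an _x_at set read 11.80 and 10.12 on the 2 arrays of KO at 0 h, where the brightest set read 13.02 and 12.93.

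**Figure D3:**
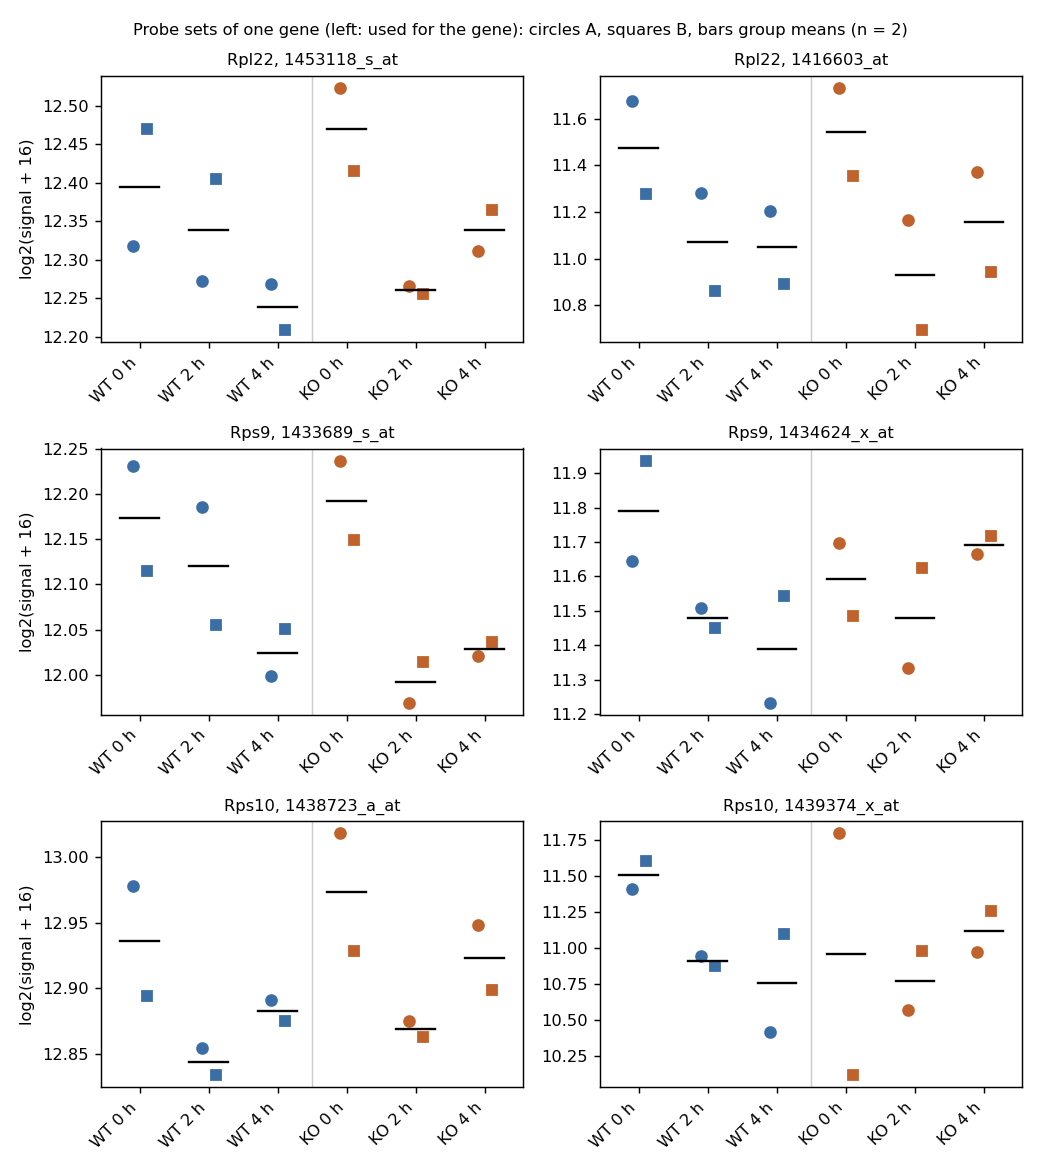
Values of 2 probe sets each for Rpl22, Rps9 and Rps10 as log2(signal + 16) on the 12 arrays (left, the set used for the gene; circles, replicate A; squares, replicate B; bars, means of 2 arrays). On the right, Rpl22's set has A above B in all 6 groups, and Rps10's set runs from 10.12 to 11.80 within KO at 0 h, while the sets on the left span 0.18 to 0.31.

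In a fit of all 27061 probe sets above the filter, 98 belonged to members, and 2 of these were called in WT at 2 h, 3 in WT at 4 h, 2 in KO at 2 h and 0 in KO at 4 h, beside 13.7%, 12%, 13.1% and 11.7% of all sets. Over the 3 times 1 was called, an _a_at set of Rps18 that was not its brightest, which read 11.80 to 11.96 in WT and 11.96 to 12.04 in KO (0.14 ± 0.033, limma, adjusted p = 0.0231). Sets that list several symbols, at least 1 of them that of a ribosomal protein, include the genes that the rule left out, but also members. Before the filter they held 46 ribosomal protein symbols, 31 of them not members. Of 105 such sets tested, 0 were higher and 3 lower in WT at 2 h, 0 and 4 in WT at 4 h, 0 and 1 in KO at 2 h, and 1 and 1 in KO at 4 h, with medians between -0.042 and -0.014. Over the 3 times 7 were higher in KO and 0 lower, beside 7.33% of all sets. None of these sets can be assigned to 1 gene.

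Genes that build ribosomes were called more often than the members, a difference that was not tested. Of 39 tested genes of ribosome assembly and RNA polymerase I, 10 rose by 2 h and 20 by 4 h in WT, and 7 and 17 in KO, and 0 fell in any of the 4 comparisons. Among all genes 8.43% and 8.31% rose in WT and 7.85% and 7.24% in KO. In either direction 19.9% and 18.2% of all genes were called in WT and 19.6% and 18.1% in KO. Ltv1, an assembly factor of the small subunit, rose by 0.61 ± 0.097 in WT at 2 h (limma, adjusted p = 0.000289), and Nhp2, a protein of the particles that modify ribosomal RNA, by 0.61 ± 0.090 in WT at 4 h (0.000128). Nolc1, a nucleolar phosphoprotein, rose by 0.79 ± 0.11 in KO at 4 h (0.000111). The list's median change was 0.19 and 0.39 in WT and 0.12 and 0.33 in KO, while that of the members was -0.024 and -0.031, and -0.066 and -0.037, and that of all genes -0.049 and -0.024, and -0.058 and -0.048. On the deposited scale 0 genes of the assembly list rose and 2 fell in WT at 2 h, 3 fell in KO at 2 h, and 0 were called at 4 h in either. In either direction 17.9% and 6.51% of all genes were called on that scale in WT and 26.7% and 6.67% in KO. The medians of the assembly list there were -0.17 and 0.22 in WT and -0.31 and 0.17 in KO at 2 and 4 h.

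The translation factors and other messages listed as TOP messages had medians of -0.10 to 0.0064 in the 4 time comparisons. Of all genes 8.43% rose and 11.5% fell in WT at 2 h, 8.31% and 9.90% at 4 h, and 7.85% and 11.7%, and 7.24% and 10.9%, in KO. Of 23 tested in this list, 0 rose and 3 fell in WT at 2 h, 2 and 1 in WT at 4 h, and 0 and 3 in KO at 2 h and at 4 h. These counts moved with the scale: in KO at 2 h 0 were higher and 6 lower on the deposited scale and 2 and 1 after trimmed-mean scaling, in KO at 4 h 0 and 0, and 1 and 1, and in WT at 2 h 0 and 1, and 1 and 1. The shares of all genes called in either direction moved too. In these 3 comparisons, in that order, they were 26.7%, 6.67% and 17.9% on the deposited scale. After trimmed-mean scaling they were 20.2%, 18.4% and 21.2%. Eif4b, a cofactor of the helicase that opens messages for translation, fell by 0.62 and 0.59 in WT and by 0.53 and 0.53 in KO, each ± 0.091 (limma, adjusted p = 0.000132, 0.000212, 0.000666 and 0.000604). Over the 3 times 8 of the 23 were higher in KO and 0 lower, beside 6.21% and 4.28% of all genes. They were led by Vim, which encodes an intermediate filament protein, at 0.38 ± 0.036 (limma, adjusted p = 4.5e-06). On the deposited scale 0 of the 23 were called over the 3 times, and after trimmed-mean scaling 3 were higher, beside 4.2% and 10.2% of all genes in either direction. Fau, a ribosomal protein gene outside the name rule that is read at 12.66, gave 0.0016, -0.041, -0.038 and -0.026 in the 4 time comparisons.

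Among 14 tested regulators of TOP message translation, Pdcd4, an inhibitor of the same helicase, rose by 1.17 and 1.27 in WT and by 1.06 and 1.32 in KO, each ± 0.075 (limma, adjusted p from 5.33e-09 to 4.51e-08). Akt1s1, a subunit and inhibitor of the mTOR complex, rose by 0.60 ± 0.11 and 0.90 ± 0.11 in WT and differed by -0.58 ± 0.064 between KO and WT over the 3 times (limma, adjusted p = 1.87e-05). In all, 2 rose and 1 fell in WT at 2 h, 3 and 0 in WT at 4 h, and 3 and 2 in KO at each time. Of 76 mitochondrial ribosomal protein genes, whose products form the separate ribosome of the mitochondrion, 1 rose and 13 fell in WT at 2 h, 3 and 4 by 4 h, and 1 and 11, and 2 and 4, in KO. For this list and the regulators, the shares of all genes were 8.43% higher and 11.5% lower in WT at 2 h and 8.31% and 9.90% at 4 h. In KO they were 7.85% and 11.7%, and 7.24% and 10.9%. On the deposited scale 1 of the mitochondrial list was higher and 11 lower in WT at 2 h, 1 and 1 at 4 h, and 0 and 26, and 1 and 0, in KO. On that scale 17.9% and 6.51% of all genes were called in WT and 26.7% and 6.67% in KO. After quantile normalization Mrps6 stood apart in this list at 1.01 ± 0.073 in WT at 2 h (limma, adjusted p = 4.53e-08). The 2 time comparisons of one genotype label share their arrays of 0 h, so they are not independent of each other.

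**Figure D4:**
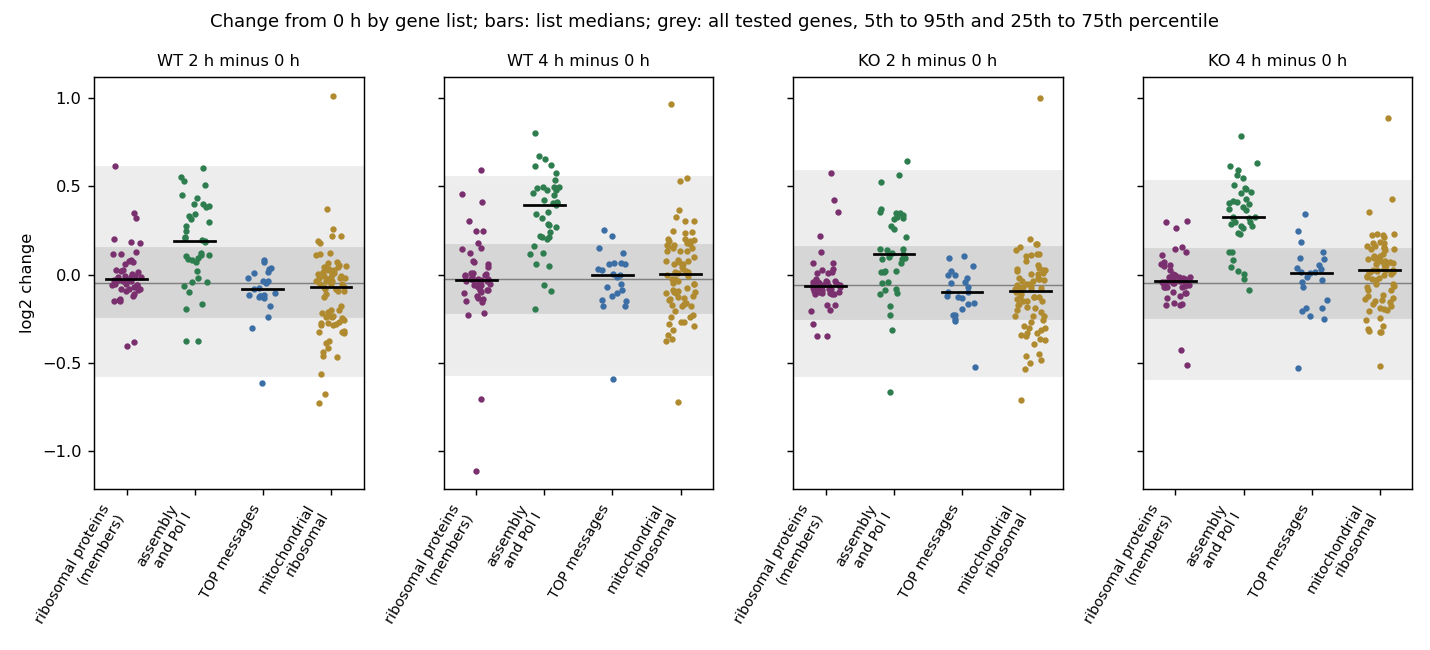
Log2 change from 0 h of each tested gene in WT and KO at 2 and 4 h. The lists are the 49 members, 39 genes of ribosome assembly and RNA polymerase I, 23 other messages listed as TOP messages and 76 mitochondrial ribosomal proteins. Bars are list medians, and grey bands the 5th to 95th and 25th to 75th percentile of all 12792 genes. The members crowd near zero, with medians of -0.066 to -0.024, and the assembly list lies higher, with medians of 0.12 to 0.39.

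How far the members as a group stood still depends on the scale. After quantile normalization their median changes lay close to those of all genes, as given above. On the deposited scale the median was -0.16 in WT and -0.26 in KO at 2 h, and 47 and 48 of 49 estimates were negative, when the median of all genes was -0.35 and -0.41. After scaling to the trimmed mean it was 0.18 in both at 2 h, with 43 and 40 of 49 positive, and all genes stood at -0.075 and -0.052. At 4 h the medians were -0.062 and -0.086 on the deposited scale and 0.078 and 0.083 after trimmed-mean scaling. Medians of 20 other abundant household genes moved alike, at -0.20 and -0.27 on the deposited scale and 0.15 and 0.18 after trimmed-mean scaling at 2 h. In the deposited signals the median of the members above 11 spanned 1.42-fold between arrays (5196 to 7366), less than the 1.79-fold of the trimmed mean, and its ratio to the trimmed mean ran from 60.7 (WT 0 h A) to 78.0 (KO 2 h B). A direction of the whole group is therefore not settled by these arrays.

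**Figure D5:**
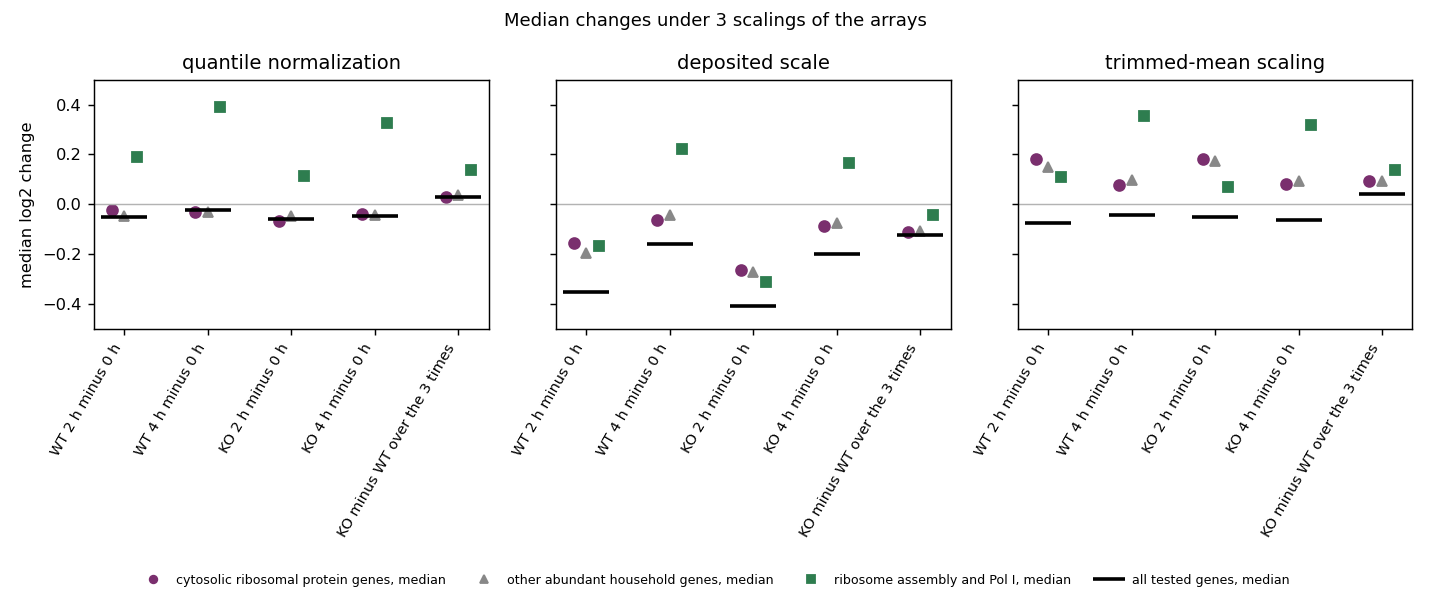
Median log2 change of the members, of 20 other abundant household genes, of the 39 assembly genes and of all tested genes (black bars) in 5 comparisons, after quantile normalization, on the deposited scale and after trimmed-mean scaling. At 2 h the members' median goes from -0.024 and -0.066 to -0.16 and -0.26 and to 0.18 and 0.18 (WT and KO) over the 3 scalings, and the household genes follow it.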

How the data were processed

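Messenger RNA of 12 samples of cultured cells was hybridised to Affymetrix mouse 3′ arrays. The values deposited by the authors are intensities on a linear scale, summarised by probe set with MAS5 per the submitters' processing notes; its version and scaling target are not given in the sources used here. From these, signals were quantile-normalized and taken as log2(signal + 16), a scale that understates changes of low genes. The brightest of a gene's 1-symbol probe sets stood for it, and genes under the 40th percentile of probe set means (4.73) were left out. One limma 3.58.1 model in R 4.3.3 (lmFit, eBayes with trend, 6 group means) was fitted to 12792 genes, two-sided, with Benjamini-Hochberg adjustment over all of them per comparison and calls below 0.05; ± is the SE. The test was tried on simulated data.

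Members, gene lists and alternatives were chosen with earlier results of these data known. Named are called members whose arrays do not overlap, the 5 highest and 5 lowest sets, members of 4 role lists, Rpsa, Rps6 and Rpl13a, and, where 0 were called, those nearest the threshold; of other lists, genes among the 3 with the smallest p. The further sets of Rps10, Rpl22 and Rps18, and the start region of Rps10, were added after their values were seen. Alternatives were other scalings, pseudocounts, filters, probe set rules and variance settings, the replicate letter as a block, and each array left out; the fit of all probe sets, the list medians and the intervals under other scalings were added after seeing the data. Only 2 arrays per group limit the precision.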

Additional observations from a re-analysis of the deposited data

Results flagged for a closer look

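In 6 members every array of the WT responses moved one way from 0 h and every array of the KO responses the other. The differences themselves did not pass the limma test, and their causes were not tested. How many of all genes moved in this way was not counted, so the number of members is not shown to be unusual. As the KO minus WT difference of the changes, the 2 h values were -0.095 ± 0.078 for Rpl19 (limma, adjusted p = 0.912), -0.53 ± 0.29 for Rpl39l (0.871), -0.15 ± 0.078 for Rplp2 (0.865) and -0.18 ± 0.085 for Rps26 (0.836). At 4 h they were -0.13 ± 0.080 for Rps3 (0.907) and 0.36 ± 0.15 for Rps6 (0.764). Rpl39l is read close to the filter level, and Rplp2, Rpl19, Rps26 and Rps3 moved by at most 0.12 in either label.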

How the results depend on the processing

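The number of members called ran from 0 to 9 over the settings. In WT at 2 h (2 as reported) it was 5 after trimmed-mean scaling and 1 with no filter, with the mean of a gene's probe sets, without the variance trend and in a fit of the compared groups only. In WT at 4 h (3) it was 6 with a filter at the 60th percentile, 5 with the replicate block and 9 at a threshold of 0.1, when 25.4%, 19.2% and 23.4% of all genes were called, and 2 on the deposited scale, with no filter, without the trend, without _x_at and _s_at sets and with all probe sets tested. In KO at 2 h (2) it was 0 with no filter, with the mean of probe sets and without the trend, 1 without _x_at and _s_at sets and when all probe sets were tested, and 4 with the 60th percentile, the compared groups only or a threshold of 0.1. In KO at 4 h (1) it was 0 on the deposited scale, with the mean of probe sets, without the trend, with the compared groups only and with all probe sets, and 2 at a threshold of 0.1. For KO minus WT over the 3 times (0) it was 1 with the 60th percentile and without _x_at and _s_at sets, and 3 at a threshold of 0.1. With 1 array left out the counts ran from 1 to 3 in WT at 2 h, 2 to 4 in WT at 4 h, 0 to 4 in KO at 2 h, 0 to 1 in KO at 4 h and 0 to 2 over the 3 times. In the other comparisons they were 0 throughout. Rps9 in KO at 2 h reversed to 0.15 without _x_at and _s_at sets.

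Over all genes the replicate letters showed no pairing: the correlation of same-letter deviations ran from -0.042 to 0.105, above 0.1 in 1 of 15 pairs. Over the tested members alone it ran from -0.706 to 0.696 with a median of -0.080, above 0.1 in 7 of 15 pairs. Whether the letters pair the members is not settled by these values. With the replicate block 5 members were called in WT at 4 h, and among single probe sets 3, 6, 4 and 1 in the 4 time comparisons. The fit of compared groups only was not run for the comparison over the 3 times, which uses all arrays.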
